A study of Mus musculus with 24 samples.

Results

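The genes described here are 10 germline genes whose promoters carry DNA methylation in somatic cells: Dazl, Ddx4, Mael, Asz1, Stk31, Sycp1, Sycp3, Hormad1, Slc25a31 and Tex101. They were chosen by name, as the rows of the count table whose Ensembl identifier carries one of these symbols in GENCODE M21, and all 10 were found among its 48985 genes. RNA was counted in 24 libraries of F121/9 cells, a female F1 hybrid line of mouse embryonic stem cells with a CAST/EiJ and a 129/Sv genome. All cells were grown on gelatin in serum-free medium with LIF and inhibitors of MEK and GSK-3β, the 2i condition that holds the cells in the naive state. The labels name 5 recombinations, d3, d6, i7, i12 and i10, and do not spell these names out; the comparisons address how expression changed upon recombination. Each recombination had a parental line (genotype control) and 1 or 2 recombined clones, where d3 had clones 12 and 21, i7 had clones 7 and 12, and there was a single clone of d6 (clone 16), i12 (clone 10) and i10 (clone 18). That made 12 lines with 2 replicates each. Each recombined line is 1 clone, no time points or ages are given, and the duplicates are called biological without naming separate cultures, so p-values measure the spread between these libraries.

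In mammals these genes act in germ cells and are held silent elsewhere. Their promoters are rich in CpG dinucleotides, and methylation of those CpGs keeps most of them off in somatic tissue. In embryonic stem cells another layer of repression is known, the PRC1.6 complex, whose subunits MGA with MAX and E2F6 with its partner DP1 recognise the E-box CACGTG and E2F-type sites. Naive cells in 2i medium are known for low DNA methylation across the genome, and some of these genes are then transcribed at a low level. DNA methylation itself was not measured in the files used here.

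The stretches upstream of Dazl, Stk31, Hormad1 and Sycp3 are shown because these 4 genes differed among the 12 lines, and because they show the group's CpG-rich promoters with and without the E-box. The 250 bases before the RefSeq start site are given 5′ to 3′ on the gene's strand, from the reference genome GRCm38.p6, which is neither of the parental strains, with each CpG in capitals.
Dazl (chr17:50293621-50293870, minus strand): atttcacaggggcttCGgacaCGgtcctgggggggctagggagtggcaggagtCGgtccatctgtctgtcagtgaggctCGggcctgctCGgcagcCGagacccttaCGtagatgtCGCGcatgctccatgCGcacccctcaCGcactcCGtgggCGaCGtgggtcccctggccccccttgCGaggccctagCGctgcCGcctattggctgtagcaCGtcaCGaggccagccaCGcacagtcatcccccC
Stk31 (chr6:49395289-49395538, plus strand): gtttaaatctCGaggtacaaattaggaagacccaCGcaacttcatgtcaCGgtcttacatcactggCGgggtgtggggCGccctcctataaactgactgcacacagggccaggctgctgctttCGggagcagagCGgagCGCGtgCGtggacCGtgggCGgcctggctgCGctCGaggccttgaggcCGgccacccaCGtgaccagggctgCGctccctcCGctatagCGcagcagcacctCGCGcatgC
Hormad1 (chr3:95559427-95559676, plus strand): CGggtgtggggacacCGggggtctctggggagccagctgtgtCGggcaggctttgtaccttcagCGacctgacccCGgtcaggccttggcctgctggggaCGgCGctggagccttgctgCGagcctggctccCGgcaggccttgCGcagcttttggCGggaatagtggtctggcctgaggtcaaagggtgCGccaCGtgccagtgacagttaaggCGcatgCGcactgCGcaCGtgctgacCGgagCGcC
Sycp3 (chr10:88459337-88459586, plus strand): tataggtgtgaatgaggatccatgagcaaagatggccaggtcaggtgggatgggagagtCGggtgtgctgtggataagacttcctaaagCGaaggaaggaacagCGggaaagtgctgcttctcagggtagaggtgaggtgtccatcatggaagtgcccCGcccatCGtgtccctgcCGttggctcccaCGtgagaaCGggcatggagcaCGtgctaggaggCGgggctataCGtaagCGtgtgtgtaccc
In the RefSeq windows of 300 bases (250 before to 50 after the start), which were found for all 10 genes, the number of CpGs ran from 15 in Sycp3 to 38 in Ddx4. Their median was 23, against 7 over all 32817 such windows of the mouse genome, and 34.6% of those held at least 15. The E-box CACGTG, which reads the same on both strands, was present in 7 of the 10 (not in Dazl, Asz1 and Tex101), against 7.15% of all windows and 11.3% of the 11356 windows with at least 15 CpGs. Sycp3 and Hormad1 each held 2 copies, as did 0.594% of all windows. The E2F-type word TTCCCGC, searched on both strands, was present in Sycp3, Hormad1, Slc25a31 and Ddx4, against 4.60% of all windows and 10.3% of the CpG-rich ones. In the printed sequences the E-box reads caCGtg and starts 55 bases before the start site in Stk31, 57 and 20 bases before it in Hormad1, and 64 and 43 bases before it in Sycp3. These are matches of letters, not measured binding.

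Library totals ran from 3286819 counts in the i10 recombination to 15581094 in d3, and every count was assigned to the 129S1 or the CAST allele. Outside the mitochondrial genome the 129S1 share lay between 47.9% and 49.1%, so neither allele was favoured strongly across the table. The pluripotency genes Pou5f1 (511 to 1109 counts scaled to library size, CPM), Nanog (985 to 2217 CPM) and Zfp42 (604 to 1915 CPM) were high in all 24 libraries. Of 12 markers of late spermatids and oocytes, 6 had no count in any library (Prm1, Prm2, Tnp1, Tnp2, Akap4 and Odf1), and the summed level of all 12 was 0.560 to 4.30 CPM.

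All 10 genes were detected, at very different depths. Hormad1 had 7610 counts over the 24 libraries, Dazl 4219, Sycp1 1730, Stk31 1713, Ddx4 1288, Sycp3 567, Slc25a31 148 and Mael 127. Tex101, which encodes a sperm surface glycoprotein, had 45 counts in 13 libraries and at most 12 in one. Asz1, which encodes a germ granule protein, had 13 counts in 8 libraries and at most 3 in one. These last 2 genes did not pass the filter on low counts, so 8 of the 10 genes were tested among 16253. CPM below are scaled by TMM-adjusted library size, and a gene was called when edgeR's quasi-likelihood test gave a Benjamini-Hochberg adjusted p under 0.05 over all genes tested. Because these are bulk libraries, fewer cells with a transcript and less transcript per cell cannot be told apart.

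The first question was whether these genes changed upon recombination, and edgeR called none in any clone in the fit of all 24 libraries. Over the 7 clones compared with their parental lines, 0 of 56 tests of the 8 genes passed in edgeR, against 0.0149% of all tests in the same comparisons. At an unadjusted p under 0.05 there were 2, both of Stk31, in i7 clone 12 and i12 clone 10. In these 2 comparisons 1006 and 213 of all 16253 genes were under it. DESeq2 called 0 as well. The median log2 change of the 8 genes lay between -0.30 (i7 clone 12) and 0.18 (d3 clone 12), and that of all genes between -0.01 and 0.01. Weighting the 5 recombinations equally, the mean log2 changes ran from -0.49 in Slc25a31 to 0.25 in Stk31 and none was called, against 0.0123% of all genes. A test of whether the effect differed among the 5 recombinations called none of the 8 either (adjusted p = 1.00 each, edgeR), with an unadjusted p of 0.0505 for Stk31.

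Stk31, a tudor-domain protein of germ cells with a kinase-like region, came closest to a change in a clone. In i7 it was at 10.4 and 9.29 CPM in the parental line, 14.7 and 10.6 in clone 7, and 5.42 and 4.39 in clone 12. Clone 12 was thus below both the other lines in both replicates, with a log2 difference of -1.002 ± 0.31 (SE, n = 2 against 2) from the parental line and an adjusted p of 0.419 in edgeR. With the replicate number within a recombination as a further term in the fit, edgeR called this difference (adjusted p = 0.0114). That fit called 1019 of all 16253 genes in this comparison (6.27%), and the labels do not pair the replicates. Against clone 7 the log2 difference was -1.36 ± 0.31, with an adjusted p of 0.107 in edgeR, which called none of the 8 genes between clones of 1 recombination, against 0.0708% of all tests. DESeq2 and the edgeR fit with the replicate term (adjusted p = 8.3e-04) did call this difference. The fit with the replicate term called 9.76% of all genes between these 2 clones. In i12 Stk31 moved the other way, at 1.43 and 1.53 CPM in the parental line and 4.08 and 3.54 in clone 10, from 6 counts in each parental library. That log2 difference was 1.37 ± 0.42 with an adjusted p of 1.00 in edgeR.

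The lines of different recombinations differed far more than clone and parental line did. A joint test over the 12 lines called 4 of the 8 genes, Dazl (adjusted p = 1.8e-05, edgeR), Hormad1 (2.4e-04), Stk31 (4.4e-04) and Sycp3 (0.0174), against 11.4% of all genes. Sycp1 (0.0853), Mael (0.402), Slc25a31 (0.516) and Ddx4 (0.550) were not called. Among the 10 pairs of parental lines, 9 of 80 tests were called, against 1.85% of all tests, and all 9 concern Dazl, Hormad1 or Stk31. These pairs share their parental libraries, so the 9 are not separate pieces of evidence. Library totals were at least 7358368 counts in d3 and i7 and at most 6920899 in i12 and i10. Between these recombinations line and depth cannot be told apart.

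**Figure D1:**
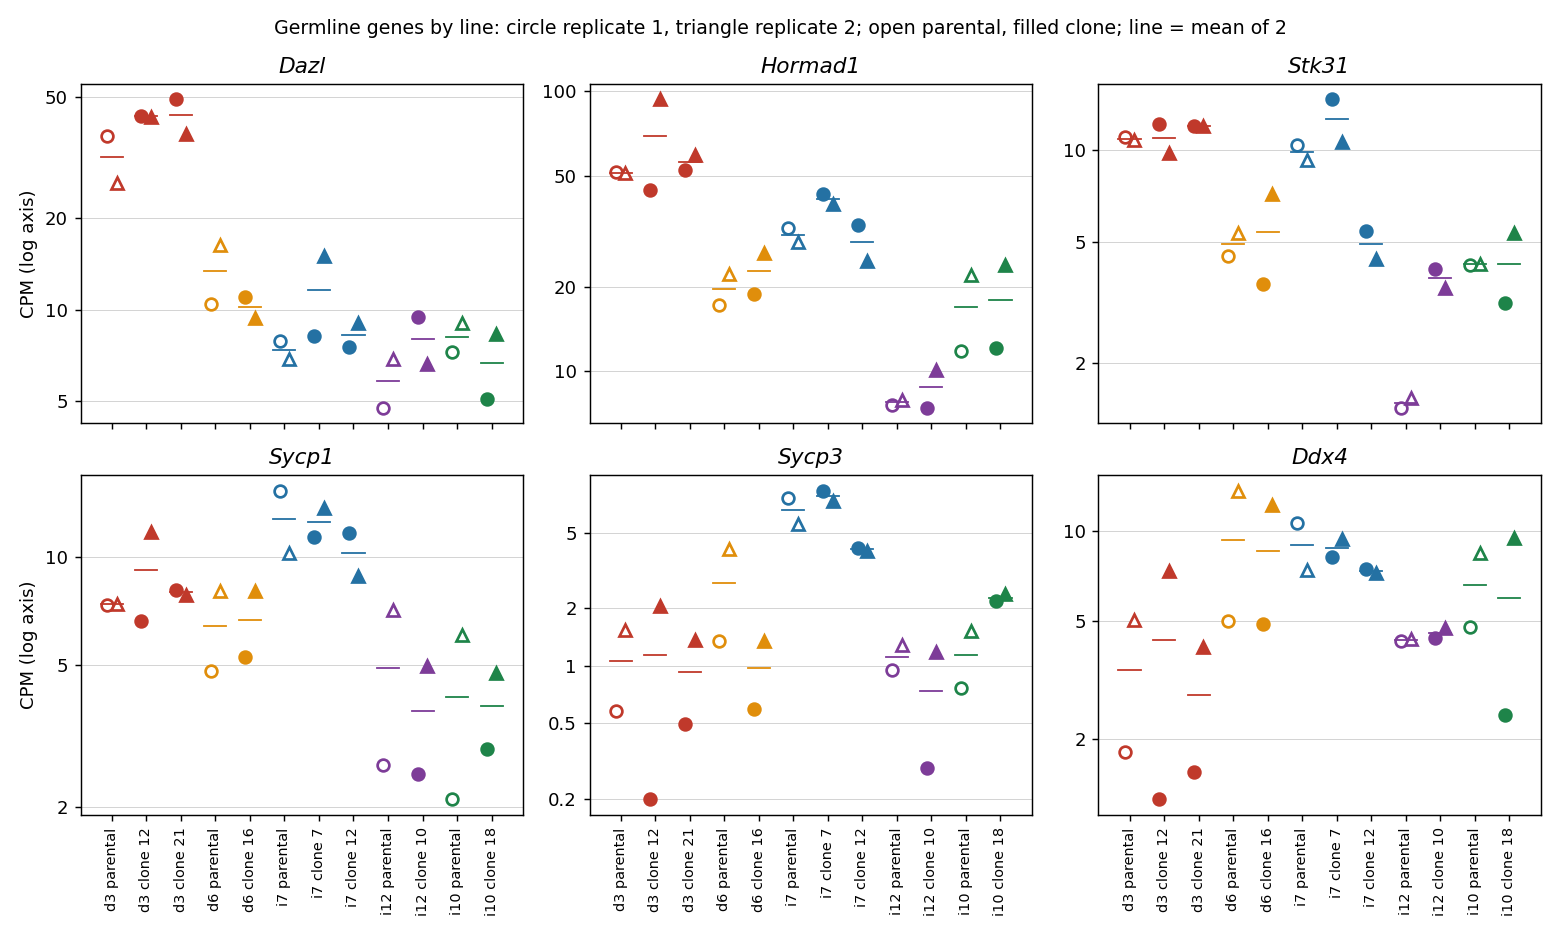
Level of 6 germline genes in each of the 24 libraries, as CPM on a log axis that differs between panels. Circles are replicate 1 and triangles replicate 2, open symbols parental lines and filled symbols clones, colours the 5 recombinations, and each short line the mean of 2 replicates. The 6 d3 libraries lie above the other 18 for Dazl and Hormad1, and the 6 i7 libraries are high for Sycp3. How many of all genes separate the libraries in this way was not counted.

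Dazl (chr17:50279395-50293636, minus strand, GRCm38) encodes an RNA-binding protein that controls translation in germ cells. In d3 it stood at 37.3 and 26.1 CPM in the parental line, 43.6 and 43.0 in clone 12, and 49.4 and 38.0 in clone 21. In d6 it was at 10.4 and 16.4 in the parental line and 11.04 and 9.40 in clone 16. The 6 d3 libraries therefore lay between 26.1 and 49.4 CPM, above every one of the other 18. The share of all genes that separate d3 in this way was not counted. In i7 Dazl was at 7.88 and 6.90 CPM in the parental line, 8.18 and 15.0 in clone 7, and 7.55 and 9.02 in clone 12. In i12 it was at 4.76 and 6.89 CPM in the parental line and 9.46 and 6.60 in clone 10, and in i10 at 7.25 and 9.07 in the parental line and 5.08 and 8.30 in clone 18. The lines of i7, i12 and i10 overlapped throughout and cannot be ordered. The d3 parental line was above that of i7 by 2.10 ± 0.33 log2 units (adjusted p = 0.00561, edgeR), of i12 by 2.45 ± 0.35 (0.00106) and of i10 by 1.97 ± 0.34 (0.00497). The shares of all genes called in these pairs were 3.73%, 4.96% and 3.35%. Against the d6 parental line the difference was 1.25 ± 0.32 with an adjusted p of 0.0541, which missed the threshold. It was called by edgeR with the replicate term (adjusted p = 0.00158) and without the filter on low counts (0.00629). Those fits called 23.8% and 3.53% of all genes in this pair.

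Ddx4 (chr13:112598333-112652475, minus strand), the mouse vasa RNA helicase and a classical germ cell marker, was spread widely between the replicates of a line. The d3 parental line had 1.82 and 5.04 CPM, its clone 12 had 1.26 and 7.36, and its clone 21 had 1.56 and 4.09. The d6 parental line had 4.99 and 13.7 CPM and clone 16 had 4.89 and 12.3. Within d3 and within d6, the replicates of a line thus differed more than the line means did. In i7 the 3 lines were tighter, with 7.27 to 10.6 CPM, and in i12 the 4 libraries lay between 4.28 and 4.72. In i10 the parental line had 4.77 and 8.46 CPM and clone 18 had 2.42 and 9.48. The largest log2 difference between parental lines was -1.44 ± 0.75 for d3 against d6, with an adjusted p of 0.330 in edgeR. Outside i7, replicate 2 was the higher in 9 of 9 lines. With the replicate term, edgeR called the d3 parental line below d6 (adjusted p = 0.00223), i7 (6.3e-04) and i10 (0.0272), not i12. That fit called 23.8%, 35.9% and 26.2% of all genes in these pairs. Without the filter on low counts, edgeR called d3 below d6 (0.0439) and i7 (0.0302), against 3.53% and 7.13% of all genes. By CPM, Dazl was thus high in the d3 libraries, while for Ddx4 the libraries of every recombination overlapped those of others.

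Mael (chr1:166201201-166238747, minus strand) and Asz1 (chr6:18050964-18109061, minus strand) encode proteins of the germ granules that act in the defence against transposons by piRNAs. Mael was at most at 13 counts in a library, with 0.606 to 1.58 CPM in the 6 i7 libraries, 0.256 to 0.823 in d3 and 0 to 0.593 in i12 and i10 together. Asz1 reached 2, 0, 3, 1, 2 and 2 counts in the 6 d3 libraries and at most 1 count in any of the other 18. For Mael the i7 libraries lay above all 8 libraries of i12 and i10, at the closest with 0.606 against 0.593 CPM. Those 8 had at most 3 counts each, and 3 counts correspond there to 0.433 to 0.913 CPM of the library total. This order is therefore not resolved, and neither the joint test nor any pair of parental lines was called for Mael. For Asz1 the floor of 3 counts corresponds to 0.193 to 0.913 CPM of the library total, so no difference was detectable.

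Stk31 had the lowest level of all 12 lines in the i12 parental line (1.43 and 1.53 CPM). The 6 d3 libraries lay between 9.79 and 12.2 CPM with a median of 11.48, and neither d3 clone was called against its parental line. The d6 libraries had 4.47 and 5.36 CPM in the parental line and 3.63 and 7.16 in clone 16. The i10 libraries had 4.20 and 4.23 CPM in the parental line and 3.14 and 5.33 in clone 18, overlapping those of d6. Stk31 was higher in the d3 than in the i12 parental line by 2.87 ± 0.39 log2 units (adjusted p = 7.1e-04, edgeR), in d3 than in i10 by 1.37 ± 0.34 (0.0358) and in i7 than in i12 by 2.72 ± 0.39 (0.00251). From CAST counts alone these 3 log2 differences were 2.12, 0.79 and 2.20, of which that between d3 and i10 was not called. In the last pair 2.2% of all genes were called. Inside the gene (chr6:49395604-49469501, plus strand) lies the processed pseudogene Gm17060 on the minus strand (49424061 to 49424884), with 32227 counts, 0.791% of them from 129S1. Its level was 101 to 255 CPM and did not follow Stk31 (r = 0.11 over 24 libraries). The kit marks strand, but the strand setting of the counting is not given in the sources used here, so reads of the overlap cannot be told apart.

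Hormad1, Sycp3 and Sycp1 encode parts of the meiotic chromosome axis or of the synaptonemal complex, which joins paired homologues. Hormad1 (chr3:95559677-95587671, plus strand), a HORMA-domain protein of unsynapsed axes, was at 51.4 and 50.9 CPM in the d3 parental line, 44.5 and 93.9 in clone 12, and 52.4 and 59.3 in clone 21. In i7 it was at 32.5 and 28.9 CPM in the parental line, 42.9 and 39.7 in clone 7, and 33.4 and 24.8 in clone 12. All 6 d3 libraries lay above the other 18, the highest of which was 42.9. In d6 Hormad1 was at 17.3 and 22.2 CPM in the parental line and 18.96 and 26.5 in clone 16. In i10 it was at 11.8 and 22.1 in the parental line and 12.1 and 23.9 in clone 18, and in i12 at 7.62 and 7.91 in the parental line and 7.42 and 10.1 in clone 10. The 4 i12 libraries lay below all others, while d6 and i10 overlapped. For Hormad1 too, the share of all genes with such a separation was not counted. The d3 parental line was above that of i12 by 2.72 ± 0.39 log2 units (adjusted p = 0.00106, edgeR) and of i10 by 1.62 ± 0.36 (0.0241), and i7 was above i12 by 1.98 ± 0.39 (0.0139). From d3 to d6 the difference was 1.38 ± 0.35 and missed the threshold (adjusted p = 0.0545, edgeR). It was called with the replicate term (2.4e-04) and without the filter on low counts (1.5e-04), where 23.8% and 3.53% of all genes were called. Of the 9 differences called, Hormad1 and Stk31 thus had the same 3 pairs each, and their log2 CPM had an r of 0.88 over the 24 libraries, the highest among the 28 pairs of tested genes.

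Sycp3, the axial and lateral element protein, had another high line. In i7 it was at 7.62 and 5.57 CPM in the parental line, 8.30 and 7.34 in clone 7, and 4.16 and 4.02 in clone 12. The other 18 libraries lay between 0.198 and 4.10 CPM, and only replicate 2 of the d6 parental line reached the lowest i7 value. The d3 libraries, the highest for Dazl and Hormad1, had 0.579 and 1.54 CPM in the parental line, 0.198 and 2.07 in clone 12, and 0.491 and 1.36 in clone 21. The parental d3 line was below i7 by 2.64 ± 0.77 log2 units, with an adjusted p of 0.0599 in edgeR. This missed the threshold, so in that fit the call of Sycp3 rests on the joint test. The difference was called by edgeR with the replicate term (adjusted p = 3.5e-05) and without the filter on low counts (2.2e-04). Those fits called 35.9% and 7.13% of all genes in this pair. Sycp3 (chr10:88459569-88473236, plus strand) lies within Chpt1 on the other strand, and Chpt1 was also high in i7 (8.13 to 16.4 CPM, against 3.64 to 13.4 elsewhere, r = 0.85 with Sycp3). From 129S1 came 90.3% of the Sycp3 and 66.2% of the Chpt1 counts. The part of Chpt1 in the Sycp3 counts was not tested.

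Sycp1 (chr3:102818499-102936100, minus strand), the transverse filament protein that bridges the homologues, followed i7 to a lesser degree. Its 6 i7 libraries lay between 8.86 and 15.4 CPM, those of d3 between 6.62 and 11.8, and those of d6 between 4.79 and 8.06. The i12 and i10 libraries were lower, at 2.47 to 7.14 and 2.10 to 6.04 CPM, from 11 to 28 counts each. The i7 parental line was above i10 by 1.71 ± 0.52 log2 units with an adjusted p of 0.126 in edgeR, and above i12 by 1.39 ± 0.51 (0.165), so no pair was called.

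Slc25a31 (chr3:40708855-40726096, plus strand), the ADP/ATP carrier of meiotic and postmeiotic germ cells, had 1 to 25 counts in 21 libraries and none in the other 3. It was at 0.265 to 1.89 CPM in i7, 0.331 to 1.44 in d3 and at most 0.604 in the 8 libraries of i12 and i10. No pair of parental lines was called for it. Tex101 (chr7:24668007-24676675, minus strand) had 1 to 12 counts in each of the 6 d3 libraries, 2 to 4 in each of the 4 d6 libraries, and 0 or 1 in each of the other 14. With a mean of 1.88 counts a library it did not pass the filter on low counts. Without that filter its joint test had an unadjusted p of 0.0205 and an adjusted p of 0.106 in edgeR.

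**Figure D2:**
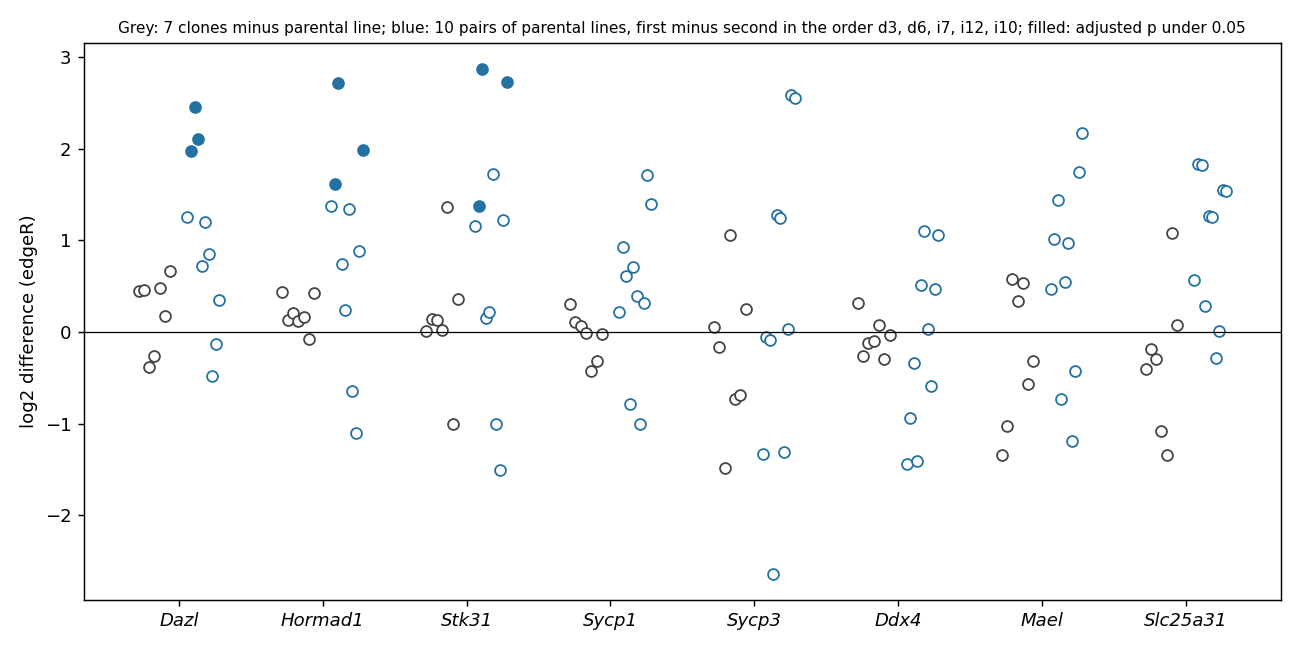
Log2 differences of the 8 tested germline genes from the edgeR fit of all 24 libraries, with the 7 clones minus their parental line in grey and the 10 pairs of parental lines in blue (first minus second in the order d3, d6, i7, i12, i10). Filled points are the 9 differences with an adjusted p under 0.05, 3 each for Dazl, Hormad1 and Stk31, and no grey point is filled.

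The call of several of these pairs rests on the spread being shared over all 24 libraries. Fitted on the 4 libraries of a pair alone, 3 of the 9 were still called: Dazl and Hormad1 between d3 and i12 and Dazl between d3 and i10. The directions of all 9 held in that fit, and leaving out any 1 library reversed none, although it ended 17 calls of 216. Dazl between d3 and i7 was lost without either i7 parental replicate (adjusted p = 0.126 and 0.0816, edgeR), and between d3 and i10 without i10 parental replicate 2 (0.0573). Hormad1 between d3 and i10 was lost without d3 parental replicate 2 (0.0744) or either i10 parental replicate (0.117 and 0.0610), and between i7 and i12 without any 1 of the 4 libraries of that pair (0.0546 to 0.132). Stk31 between d3 and i10 was lost without any 1 of d3 parental replicate 2, the parental replicates of i10 and i7, or the replicates of i7 clone 12 (0.0505 to 0.282). The other 4 differences stayed called without any 1 library.

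The counts per allele were examined next, to see whether 1 parental genome gave these transcripts. A test added after the columns of the table had been seen asked whether the 129S1 to CAST ratio differed from 1 over the 5 parental lines. It called 4 of the 5 genes that averaged 10 or more counts from each allele per library, against 69.2% of all 10795 genes tested this way, so an uneven ratio was common in the table. Dazl was mostly from CAST, with a log2 ratio of -1.38 ± 0.16 (adjusted p = 1.1e-07, edgeR) and a 129S1 share of 26.8% of its counts over all libraries. Stk31 leaned to CAST as well, with -2.63 ± 0.26 (2.5e-08) and a share of 29.8%; this mean over lines includes the i12 parental line with no 129S1 count, so its size depends on how that 0 is fitted. Hormad1 and Sycp1 leaned to 129S1, with 1.67 ± 0.14 (6.7e-10) and 1.39 ± 0.16 (1.6e-07), and shares of 76.5% and 66.1%. For Ddx4 the log2 ratio was 0.06 ± 0.14 (0.773), with a share of 48.8% (95% Wilson interval 46.1% to 51.6%, counting error only). Below the count minimum, Sycp3 had 512 of 567 counts from 129S1 (90.3%, 87.6% to 92.5%) and Mael 112 of 127 (88.2%, 81.4% to 92.7%). How reads were assigned to an allele is not given in the sources used here, and the part of mapping in these ratios was not tested. Nor was the part of reads from the pseudogene Gm17060 in the ratio of Stk31.

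No change of the allelic ratio was called in a clone: 0 of 35 tests passed in edgeR, against 0.836% of all such tests. The 1 test at an unadjusted p under 0.05 was Stk31 in i12 clone 10, where 570 of all 10795 genes were under it. Across the 12 lines a change of this ratio was called for Stk31 alone (adjusted p = 0.00582, edgeR), against 8.76% of all genes. In Stk31 the 129S1 share was 32.9% to 44.8% in the 6 d3 libraries and 22.4% to 35.4% in the 6 i7 libraries. It was 18.6% to 29.4% in the 4 d6 libraries and 7.14% to 15.4% in the 4 i10 libraries. The pseudogene Gm17060 inside Stk31 was at 101 to 255 CPM, with 0.791% of its counts from 129S1. Its part in the Stk31 shares, and that of the Stk31 level, was not tested. In the i12 parental line 0 of 6 counts were from 129S1 in each replicate, with a Wilson interval of 0 to 39.0%, and in i12 clone 10 there were 5 of 28 and 4 of 15. The 129S1 share of Dazl was 20.6% to 29.9% in the 6 d3 libraries and 18.5% to 40.0% in the other 18.

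**Figure D3:**
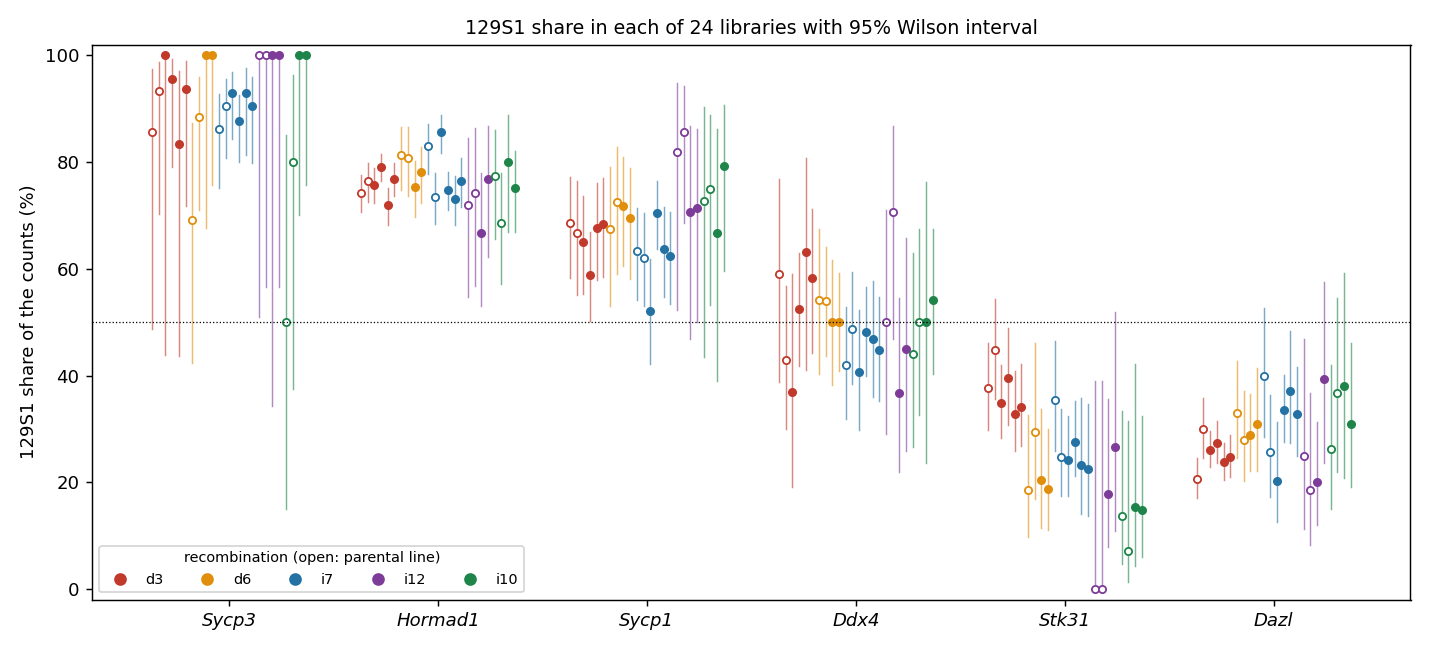
Share of the counts from 129S1 in percent for 6 germline genes, 1 point per library with its 95% Wilson interval as a vertical line, open for parental lines, with colours for the 5 recombinations and a dotted line at equal shares. Sycp3, Hormad1 and Sycp1 lie above the line and Dazl below it in nearly every library, and Stk31 runs from 44.8% in d3 to 0 in the i12 parental line.

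Other genes of the same biology were read from lists. Of 69 other germline genes, 67 were in the table and 41 were tested, and the joint test called 11, or 26.8%, against 11.4% of all genes. These were the meiosis genes Smc1b, Hormad2, Rec114, Majin, Terb2 and Brdt, the germline factors Rnf17 and Tex19.1, and Rpl10l, Tuba3a and Tuba3b. None of 287 tests of clones against their parental lines was called in edgeR (9 at an unadjusted p under 0.05), against 0.0149% of all such tests. In each of these comparisons 48 to 1006 of all 16253 genes were under that unadjusted p. Between the 2 d3 clones edgeR called 1 of the 41 genes, Rnf17, lower in clone 21 than in clone 12. In that comparison 8 of all 16253 genes were called. Between the 2 i7 clones it called 0 of the 41. In the pairs of parental lines 19 of 410 tests were called, against 1.85% of all tests, 7 of them for d3 against i12, all higher in d3. Rec114 was called lower in i7 than in i10, and of 4 genes called for i7 against i12, 1 was lower in i7. The median log2 change of the 41 genes from d3 was 0.51 against i12 and 0.19 against d6. It was -0.10 against i7 and -0.01 against i10, so the list was not generally higher in d3. Smc1b, the meiotic cohesin subunit, had a median of 13.1 CPM in the d3 libraries, 9.90 in i7, 1.74 in d6, 1.99 in i10 and 0.602 in i12. Rpl10l, an autosomal copy of an X-linked ribosomal protein gene that is used in spermatocytes, had 185 CPM in d3, 95.8 in i7, 54.0 in i10, 51.9 in d6 and 38.8 in i12. Tuba3a, a testis alpha-tubulin gene, had 173 CPM in d3 and 57.7 to 100 in the others. Tuba3a and Tuba3b are near-identical, and Rpl10l resembles Rpl10, so the assignment of reads to these genes is uncertain.

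Known repressors and methylation enzymes were read in the same way, against the 11.4% of all genes that the joint test called. Of 15 genes of the PRC1.6 and E2F6 complex the joint test called Yaf2 only (adjusted p = 0.0110, edgeR), a RYBP homologue, with 16.95 CPM in d3, 10.8 in d6, 10.7 in i7, 8.02 in i12 and 7.82 in i10 (medians). Of 16 writers and erasers of DNA methylation and H3K9 methyltransferases it called Dnmt3l, the cofactor of the de novo methyltransferases (0.00332), and Tet3, an oxidase of methylcytosine (0.00242). Dnmt3l had medians of 90.7 CPM in d3, 59.9 in i7, 13.7 in d6, 11.1 in i12 and 4.47 in i10. Tet3 had 9.46 CPM in d3, 7.39 in i7, 5.96 in d6, 3.79 in i12 and 3.60 in i10. The i7 and d6 libraries overlapped for Tet3 (3.87 to 10.8 and 4.88 to 7.78 CPM) and did not for Dnmt3l (43.5 to 138.5 and 6.62 to 21.5 CPM). How many of all genes separate these libraries was not counted. The joint test called 6.67% of the first list and 12.5% of the second, below and near the 11.4% of all genes. Neither Dnmt3l nor Tet3 was called in a clone (lowest adjusted p 0.931 and 0.909, edgeR). Their part in the levels of the germline genes was not tested.

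Markers of other cell states were read as well, and the lists are short. Against 11.4% of all genes, the joint test called 3 of 11 tested naive genes (Nanog, Tbx3 and Dppa3), 3 of 5 primed genes (T, Lef1 and Pim2), 2 of 6 genes of primordial germ cells (Kit and Dppa3), and Gm8300, the 1 two-cell-like gene tested. Nanog had a median of 1831 CPM in d3 and 1103 to 1181 in the other recombinations. Dppa3 instead had medians of 116 CPM in d3 and in i7, 213 in d6, 401 in i12 and 460 in i10. Tbx3 had 230 CPM in d3, 243 in i7, 208 in d6, 134 in i12 and 142 in i10. Between the d3 and i7 parental lines Nanog, Esrrb and Tfcp2l1 were called, 1 higher and 2 lower in d3, against 3.73% of all genes. Kit, a receptor of germ cell precursors that stem cells also make, was at 137 CPM in d3 and 73.3 in i7, against 224 to 236 in the others. The summed level of the 7 primed markers was mostly T, Lef1 and Pim2. It was 64.1 to 105 CPM in d3, 27.4 to 94.7 in i7 and 43.6 to 75.3 in i12, so these overlapped. In d6 it was 39.5 to 49.1 CPM and in i10 29.3 to 49.4. T and Pim2 had their highest medians in d3 (35.2 and 37.2 CPM), and Lef1 in i12 (26.0, against 16.4 in d3). The summed level of 6 two-cell-like markers was 1.62 to 19.18 CPM in d3, against at most 3.63 elsewhere. Zscan4c, Zscan4d, Zscan4f and Usp17lc were at 0 in all libraries. Of the feeder markers, Col1a1 was called (1.72 to 3.77 CPM in d3, 0.191 to 1.68 elsewhere) and Col3a1 had 2 counts in all. The summed level of the 7 feeder markers, most of it Fn1, was 881 to 2465 CPM in d3 and 2041 to 4142 CPM elsewhere. Of 3 endoderm markers tested none was called in the joint test, while Gata4 was called lower in the d3 parental line than in those of i12 and i10. The part of these cell states in the germline genes was not tested.

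Genes were ranked by Pearson correlation over the 24 libraries with the mean of the 6 germline genes of at least 10 counts a library, as a description only. The 6 did not share 1 pattern: r among them ran from -0.42 (Dazl with Ddx4) to 0.88 (Hormad1 with Stk31). The mean is therefore not the pattern of each gene. The highest were Ubqln1 (r = 0.96), Ctnna1 (0.93), Tex13c2 (0.92), Eps15 (0.90) and Hes1 (0.90), and the lowest were Dpysl3 (-0.92), Mrpl16 (-0.89), Slc35b3 (-0.89), D230025D16Rik (-0.89) and Ada (-0.88). Dpysl3 had a mean of 1.25 CPM in d3 and 1.40 in i7, against 14.7 in i12. Most like Dazl alone were Gm15262 (0.92), Fcgr3 (0.91) and Cpne2 (0.88). Fcgr3, an Fc receptor gene, was at a mean of 50.2 CPM in d3 and 11.6 to 15.3 in the others.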

How the data were processed

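Poly(A) RNA of 24 libraries was made with a stranded kit and read as single 75-base ends, per the labels' protocols. The authors deposited 1 table of raw counts per gene, with a 129S1 and a CAST column per library. STAR, SAMtools and mm10 are named in the submitters' processing notes; the counting program, its annotation and strand setting, and the assignment of reads to alleles are not given in the sources used here. Of 48985 identifiers 48838 matched GENCODE M21 without the version.

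Both alleles' counts were added. All 24 libraries entered 1 fit with a coefficient per line in edgeR 4.0.16 (TMM, filterByExpr, quasi-likelihood test, Benjamini-Hochberg adjustment, threshold 0.05), tested on simulated data beforehand. It kept 16253 genes and left 12 residual degrees of freedom, with a common biological coefficient of variation of 0.246. The allelic ratio was fitted in 10795 genes, with terms for each library and for the allele in each line. DESeq2 1.42.0 served as an alternative, beside other normalisation, filters, single alleles, a replicate block and 1 library left out at a time. Wilson intervals (95%) and the floor of 3 counts cover counting error only. Promoters are from RefSeq on GRCm38.p6.

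The 10 genes and all lists were chosen with earlier results of these data known. Named genes are the 10, up to 3 genes of each list with the smallest joint p, and the genes most like them by correlation; other names follow the counts they belong to. Replicates with the same number were not taken as pairs, since the labels do not say that they share a culture or day and each comparison has only 2 of them.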

Additional observations from a re-analysis of the deposited data

How the results depend on the processing

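The 9 called differences between parental lines kept their sign under every other processing tried and with any 1 library left out. Over 72 refits with other processing 62 stayed under the threshold, and over 216 refits without 1 library 199 did. Adjusted p reached 0.266 (Stk31, d3 against i10, on the libraries of that pair) and 0.282 (the same difference without 1 library). Sizes moved most for Stk31, with log2 differences of 2.12 from CAST and 8.32 from 129S1 counts alone between d3 and i12, 2.20 and 7.70 between i7 and i12, and 0.79 and 3.25 between d3 and i10, where the 129S1 values against i12 rest on a parental line with no 129S1 count and are no measure of size. Stk31 and Hormad1 between d3 and i10, and Hormad1 between i7 and i12, were the ones most often lost.

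Counts of calls moved more. With a replicate block (replicate number within recombination), calls of the germline genes rose from 9 to 35 in parental pairs, from 4 to 7 in the joint test (all genes from 11.4% to 57%), from 0 to 1 in clones against parental lines (Stk31 in i7 clone 12, adjusted p = 0.0114, edgeR) and from 0 to 2 between clones (Stk31 and Sycp3 in i7, where calls over all genes rose from 15 to 1587). Over all genes the block gave 1055 calls in place of 17 in clones, 1019 of them in i7 clone 12. In parental pairs it gave 32637 in place of 3003, as the coefficient of variation fell to 0.119. Same-numbered libraries deviated together, with a correlation over genes of 0.36 to 0.69 within a recombination (9 pairs of groups) and of -0.21 to 0.60 between recombinations (57 pairs). Groups of d3 with d6 had 0.40 to 0.60 and those of i12 with i10 0.50 to 0.58, while d6 with i7 had -0.21 to -0.01. The part of library handling in the differences between recombinations was not tested. Replicate 2 was the higher in 9 of 9 lines outside i7 for both Ddx4 and Sycp3. The labels do not state this pairing.

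In parental pairs the germline genes had 16 calls with the DESeq2 test, 21 without the filter on low counts and 3 on the libraries of the pair alone; DESeq2 also called Stk31 between the i7 clones (1). Over all genes, clones against parental lines gave 205 calls without the filter, 93 with DESeq2, 222 on the libraries of the comparison, 362 from 129S1 and 149 from CAST counts alone. Parental pairs gave 10656, 6797 and 370 in the first 3 of these settings and 1799 from CAST counts. Without 1 library the germline genes had 6 to 11 calls in parental pairs, 3 to 5 in the joint test, 0 in clones and 1 for the allelic ratio, while all genes had 12 to 1413 in clones (1413 without d3 parental replicate 1) and 1245 (without i7 parental replicate 1) to 6943 (without d3 parental replicate 1) in parental pairs. The cause was not tested. Depth limits Asz1, Tex101, Mael and Slc25a31 in all lines, and allelic shares in i12 and i10.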
